A study of Cricetiscus sungorus with 12 samples.

Results

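Rbm3 and Cirbp encode the cold-inducible RNA-binding proteins, and 3 of the 17191 gene records in these data belong to them. The records were chosen by their mouse Entrez GeneIDs, 19652 for Rbm3, 12696 for Cirbp and 100043257 for Rbm3-ps, which the mouse annotation lists as a pseudogene of Rbm3. They were selected on the torpor values of these samples, so those values are described here and not tested. Hypothalamic mRNA of 12 adult Djungarian hamsters (labelled Cricetiscus sungorus) was sequenced, with 1 library per hamster and 4 hamsters in each of 3 groups. LP-NT hamsters had stayed in long photoperiod with 16 h of light per day and were normothermic (2 males, 2 females). SP-NT hamsters were acclimated to short photoperiod with 8 h of light per day and were normothermic when sampled (2 males, 2 females). SP-HT hamsters had the same short photoperiod and were sampled in spontaneous daily torpor, with a lowered body temperature (3 males, 1 female). All hamsters were unmodified animals of an outbred indoor colony and were sampled at ZT 4, counted in hours from lights on. Every SP-acclimated hamster carried an implanted temperature transmitter and had shown torpor before, whereas LP-NT hamsters carried no implant, so photoperiod and implantation cannot be told apart. Each group is described as labelled, and a positive log2(FC) is a higher level in the first group named. The direction of SP: HT vs NT is in doubt. The torpor log2(FC) in the study's tables that could be checked, Rbm3-ps included, have the opposite sign of those obtained with the labels as given, while the photoperiod values of the checked hand-named genes have the same sign. The photoperiod values use the same SP-NT samples, and for 6 of 6 hand-named genes they matched the study's in size as well. That match would be lost if the 2 short photoperiod labels had been exchanged between the study and the files. The printed torpor sign thus runs opposite to the labels on which the study's photoperiod values rest. Whether the labels name the right animals was not tested. Every direction given for torpor below, and for SP-HT against LP-NT, therefore holds for the samples as labelled.

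Both genes code for small proteins with a single RNA recognition motif followed by a tail rich in glycine and arginine. Their mRNAs are known to accumulate when mammalian cells are cooled by a few degrees, and part of that response is known to run through temperature-dependent splicing, in which CLK kinases that phosphorylate SR splicing factors become more active in the cold. RBM3 is known for raising translation and for protecting synapses in cooled mouse brain, and CIRBP for binding clock gene mRNAs and shaping daily rhythms of their abundance.

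A gene record in these data is the sum over all de novo assembled transcripts whose best mouse protein hit is 1 GeneID. The Rbm3 record held 1 transcript and the Rbm3-ps record 3, and all 4 were isoforms of the same assembled gene. Transcripts without a mouse protein hit were left out by the authors, so any further isoforms of that gene are not counted. The pair divides the reads of these 4 isoforms, and neither record alone gives their total. Such division was common, since 3031 of the 20569 assembled genes with more than 1 transcript, 14.7%, were spread over more than 1 record. The Cirbp record joined 11 transcripts from 2 assembled genes, and 2 further isoforms of the larger one were filed under another GeneID, 69770, whose name is not paired in the files. Isoforms within a record are not separated in the values used here. The records' values are given as TPM, which is divided by length and can be compared between genes, and as CPM, counts scaled to the library size by TMM and compared only between samples.

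Library totals ranged from 20204979 to 24186918 expected counts, lowest in SP-HT and highest in SP-NT by their medians of 21832555 and 23941442. Transcripts of hypothalamic neuropeptides were present: all 8 listed (Hcrt, Pmch, Avp, Oxt, Agrp, Trh, Npy and Pomc) were above 0 in every sample, with summed levels from 1570 to 2052 TPM in LP-NT, 1231 to 1972 TPM in SP-NT and 874.8 to 1439 TPM in SP-HT. Of 27 marker genes for hypothalamus, other brain cell types, pars tuberalis, choroid plexus and blood, 26 were above 0 TPM in every sample. None reached the level of significance in SP: HT vs NT by edgeR (6 at an unadjusted p below 0.05, and 1 by DESeq2). The whole hypothalamus was sequenced, so fewer cells of a type and less RNA per cell cannot be told apart in any of the values below.

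Cirbp was the most abundant of the records. Its mean over the 12 hamsters was 342.8 TPM, above 97.9% of all records, while Rbm3 averaged 28.6 TPM, above 60.2%, and Rbm3-ps 15.5 TPM, above 46.3%. The Cirbp level was 7.92 ± 0.525 times (SD, n = 4) that of the Rbm3 and Rbm3-ps records together in LP-NT, 7.16 ± 0.513 times in SP-NT and 8.44 ± 1.24 times in SP-HT, with overlapping ranges.

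The Rbm3 record was lowest in LP-NT, intermediate in SP-NT and highest in SP-HT. Its TPM was 19.2, 17.2, 15.0 and 16.2 in LP-NT replicates 01, 02, 03 and 05. In SP-NT replicates 19, 36, 37 and 38 it was 29.7, 24.7, 26.0 and 25.7 TPM. In SP-HT replicates 02, 10, 26 and 33 it reached 37.9, 54.5, 44.5 and 32.6 TPM. In TPM no group overlapped with another: every SP-NT hamster lay above every LP-NT hamster, and every SP-HT hamster above every SP-NT hamster. The share of all genes without overlap was not computed, here or for the records and genes below. The spread widened with the level, and replicates 10 and 26 were the highest SP-HT animals. These values rest on 156 to 552 expected counts per library.

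**Figure D1:**
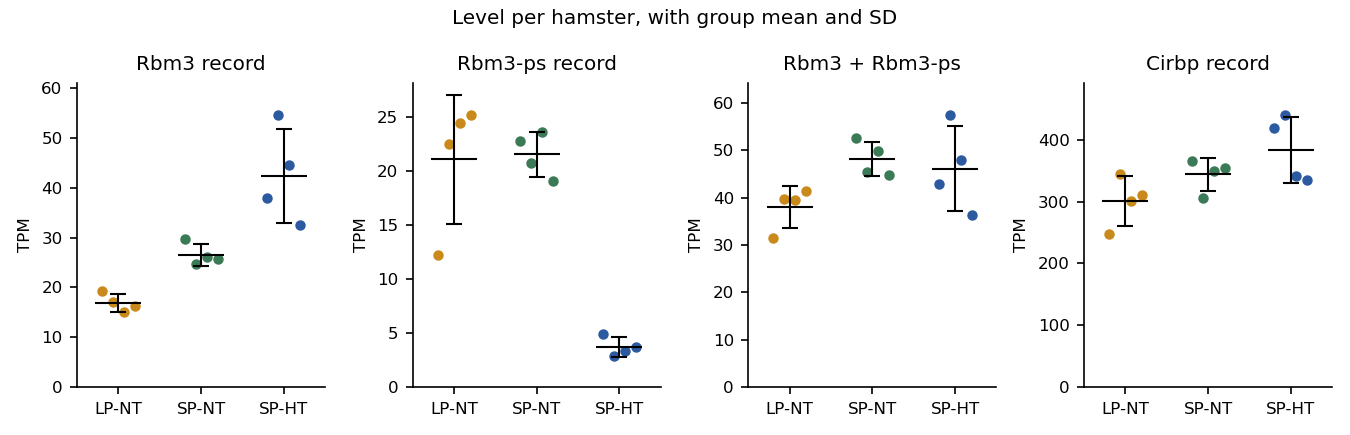
TPM of the Rbm3 record, the Rbm3-ps record, their sum and the Cirbp record (y axes, each from 0) by group. Each point is 1 hamster, and the black bar and whiskers are the group mean and SD (n = 4); the Rbm3 groups do not overlap, the Rbm3-ps record lies between 2.87 and 4.97 TPM in SP-HT against at least 12.3 TPM elsewhere, and the sum overlaps between SP-NT and SP-HT.

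In the samples labelled SP-HT the Rbm3-ps record lay on the other side of the normothermic samples than Rbm3 did. It was at 12.3, 22.5, 24.5 and 25.2 TPM in LP-NT replicates 01, 02, 03 and 05. The SP-NT hamsters 19, 36, 37 and 38 had 22.9, 20.7, 23.7 and 19.1 TPM. The SP-HT hamsters 02, 10, 26 and 33 had only 4.97, 2.87, 3.37 and 3.76 TPM. The normothermic groups overlapped, with LP-NT replicate 01 far below the other LP-NT hamsters, and all 4 SP-HT hamsters lay below all 8 normothermic ones. In SP-HT the record was left with 52 to 92 expected counts per library, against 199 to 393 in the other libraries.

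The sum of both records, which holds the 4 isoforms of the assembled Rbm3 gene that had a mouse protein hit, differed much less. It was 31.5, 39.7, 39.5 and 41.4 TPM in LP-NT replicates 01, 02, 03 and 05, and 52.5, 45.4, 49.7 and 44.8 TPM in SP-NT replicates 19, 36, 37 and 38. In SP-HT replicates 02, 10, 26 and 33 it was 42.9, 57.4, 47.9 and 36.3 TPM. All SP-NT hamsters lay above all LP-NT hamsters, while SP-HT overlapped with both other groups, with replicate 10 the highest and replicates 02 and 33 below all SP-NT hamsters. The order of the summed TPM means was SP-NT 48.1 ± 3.67, SP-HT 46.1 ± 8.86 and LP-NT 38.0 ± 4.43 (SD, n = 4 each), and neither pair that includes SP-HT differed beyond its spread.

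The division of the expected counts between the records shows the same shift as a percentage. The Rbm3-ps record took 48.1%, 66.2%, 70.6% and 69.7% of the counts of both records in LP-NT replicates 01, 02, 03 and 05. In SP-NT replicates 19, 36, 37 and 38 its share was 53.4%, 55.5%, 57.6% and 52.6%. In SP-HT replicates 02, 10, 26 and 33 it was 18.0%, 8.68%, 11.1% and 16.8%. The 95% Wilson intervals of these shares, taken on rounded counts, had half-widths of at most 4.79 points and cover counting error only. The counts are RSEM's estimates, which divide reads that fit both records, and the error of that division is not covered. The SP-HT shares lay below all others. LP-NT replicate 01, with an interval from 43.3% to 52.9%, had the lowest share of the LP-NT hamsters.

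**Figure D2:**
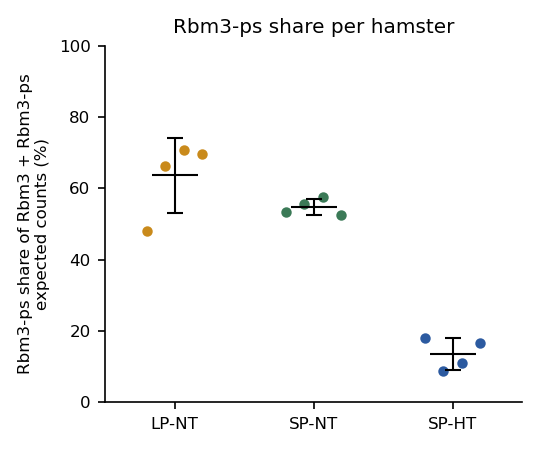
Share of the Rbm3-ps record in the expected counts of the Rbm3 and Rbm3-ps records together (y axis, percent) per hamster in LP-NT, SP-NT and SP-HT. Points are hamsters, bars and whiskers the group mean and SD (n = 4); the SP-HT hamsters lie between 8.68% and 18.0%, and all 8 normothermic hamsters between 48.1% and 70.6%.

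Cirbp differed little between the groups in CPM, while its mean TPM was 1.27-fold higher in SP-HT than in LP-NT. The record was at 247.7, 344.1, 301.6 and 310.7 TPM in LP-NT replicates 01, 02, 03 and 05. In SP-NT replicates 19, 36, 37 and 38 it was 365.8, 305.8, 349.9 and 354.1 TPM, and in SP-HT replicates 02, 10, 26 and 33 it was 419.0, 439.4, 341.5 and 334.0 TPM. The ranges of neighbouring groups overlapped, and only SP-HT replicates 02 and 10 lay above every normothermic hamster. In CPM, which is not divided by length, even these were within the SP-NT range: Cirbp was at 166.4 ± 16.8 CPM in LP-NT, 184.3 ± 15.2 CPM in SP-NT and 179.4 ± 11.5 CPM in SP-HT (SD, n = 4 each).

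That difference between the scales came with a shift in effective length, the mean number of positions at which a fragment can start, averaged by RSEM over the transcripts of a record by their abundance. In a record with several transcripts it moves with the transcripts to which reads are assigned, but it also differs between libraries for a single transcript, as the Rbm3 record shows. The effective length of the Cirbp record was 1467 to 1579 bases in LP-NT and 1371 to 1591 bases in SP-NT, and 1174, 1174, 1281 and 1468 bases in SP-HT replicates 02, 10, 26 and 33. Of the SP-HT hamsters, 3 lay below every normothermic one, and replicate 33 lay within the normothermic range.

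The Rbm3-ps record shifted the other way. Its effective length was 1921 to 1962 bases in LP-NT, 1951 to 1973 bases in SP-NT and 2142 to 2350 bases in SP-HT, where all 4 hamsters lay above all normothermic ones. Rbm3, with a single transcript, had 1301 to 1330 bases over all libraries.

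**Figure D3:**
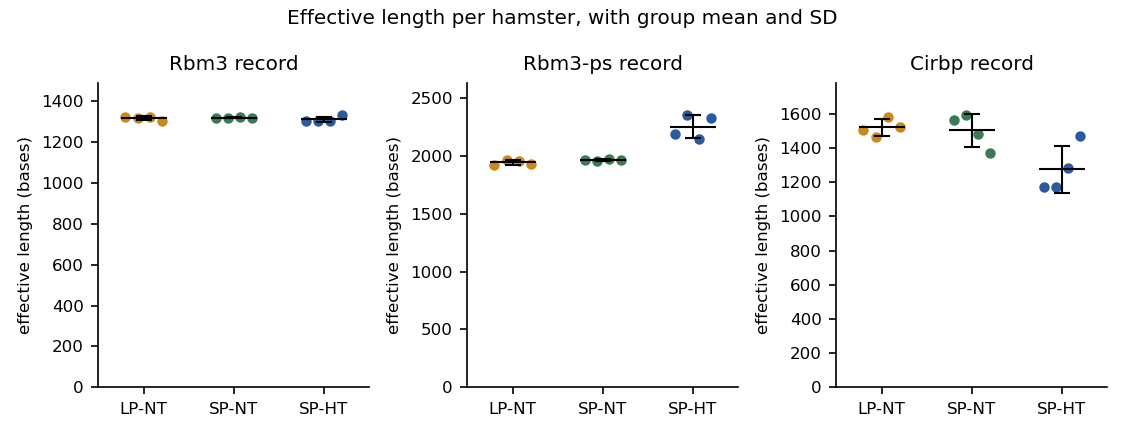
Effective length in bases (y axes from 0) of the Rbm3, Rbm3-ps and Cirbp records per hamster in LP-NT, SP-NT and SP-HT, with group mean and SD (n = 4). In SP-HT the Rbm3-ps record lies at 2142 to 2350 bases, above all normothermic hamsters, 3 of 4 Cirbp values lie below the normothermic range, and the Rbm3 record stays between 1301 and 1330 bases.

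The comparison NT: SP vs LP addresses what photoperiod acclimation does at normal body temperature. The records were not chosen on it, but it shares its SP-NT hamsters with the torpor values on which they were chosen. Its p for the records are therefore not independent of that choice. Rbm3 was 1.53-fold higher in SP-NT, with 12.5 ± 1.09 CPM against 8.14 ± 1.14 CPM in LP-NT (SD, n = 4 each) and higher in 4 of 4 hamsters than in any LP-NT hamster. The log2(FC) was 0.61 (SE 0.12), and this was the 17th of 16199 genes by p in edgeR's quasi-likelihood test (unadjusted p = 0.000395), but it did not reach the level of significance after Benjamini-Hochberg adjustment over all genes tested (adjusted p = 0.377). DESeq2 gave the same size, 0.62, with an adjusted p of 0.00389. Over all alternatives that kept every hamster and the Rbm3 record alone, its adjusted p ran from 0.00389 in DESeq2 to 0.5545 in edgeR with an effective length offset. The call thus depends on the tool. For the summed records, a different quantity, the adjusted p was 0.913 in edgeR.

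Cirbp and the Rbm3-ps record did not reach the level of significance between the photoperiods. The log2(FC) of Cirbp was 0.15 (SE 0.08, adjusted p = 0.913 in edgeR), with an approximate 95% interval from -0.02 to 0.31, and it was 0.08 without LP-NT replicate 01. That of the Rbm3-ps record was 0.02 (SE 0.18, adjusted p = 0.984 in edgeR), with an interval from -0.34 to 0.39. The summed Rbm3 records gave 0.26 (SE 0.10, adjusted p = 0.913 in edgeR). In all, 0 of the 3 records were called by edgeR, which called 6 of 16199 genes, 0.0370%, and 1 by DESeq2, which called 33 genes. The unadjusted p in edgeR's quasi-likelihood test was 0.000395 for Rbm3, 0.109 for Cirbp and 0.900 for Rbm3-ps. By this p they held places 17, 1836 and 14803 of 16199. GeneID 69770, whose 5 transcripts include the 2 further Cirbp isoforms, was at 21.9 ± 3.54 CPM in SP-NT and 16.0 ± 0.833 CPM in LP-NT (SD, n = 4 each). All 4 SP-NT hamsters lay above all LP-NT hamsters. In SP-HT it was at 20.8 ± 2.93 CPM. No test is given for this record, and the part of these 2 isoforms in it is not known.

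The share of the Rbm3-ps record in the counts of both was 54.8% ± 2.24 in SP-NT and 63.7% ± 10.6 in LP-NT (SD, n = 4 each). The difference of -8.85 points was within the spread between hamsters (two-sided exact permutation test over 70 splits, p = 0.143, and 0.286 after Benjamini-Hochberg adjustment over 4 tests; the smallest p the design allows is 0.0286). Without LP-NT replicate 01 the difference was -14.0 points and the groups no longer overlapped (exact permutation p = 0.0571, the smallest that 3 against 4 hamsters allow). Effective lengths of Rbm3, Cirbp and Rbm3-ps differed between the photoperiods by 1.91, -17.1 and 21.6 bases on average (SP-NT minus LP-NT), with exact permutation p of 0.800, 0.800 and 0.114 (0.800, 0.800 and 0.286 after the same adjustment).

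Pars tuberalis transcripts moved with photoperiod as well. The summed level of Tshb and Cga, the thyrotropin subunits made there, was 82.6 to 219.7 TPM in LP-NT, 4.13 to 9.93 TPM in SP-NT and 1.49 to 10.6 TPM in SP-HT, and both genes were called in NT: SP vs LP and in SP-HT vs LP-NT. Oxt, Pomc, Rax and Vim were also called in the latter. How far these shifts in the tissue contribute to the Rbm3 values was not tested.

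In SP: HT vs NT, which compares torpid with normothermic hamsters of the same photoperiod, the records are described without a test and with the direction as labelled. Rbm3 was 1.65-fold higher in SP-HT, with 20.6 ± 4.77 CPM against 12.5 ± 1.09 CPM (SD, n = 4 each), a log2(FC) of 0.72 (SE 0.15). The Rbm3-ps record was 4.87-fold lower, with 3.10 ± 0.671 CPM against 15.1 ± 1.5 CPM, a log2(FC) of -2.28 (SE 0.15). The summed records had a log2(FC) of -0.22 (SE 0.12), so the direction depends on whether the Rbm3 record is read alone or with its partner. Cirbp had a log2(FC) of -0.04 (SE 0.06), which became 0.20 when the effective lengths entered the fit as an offset. In CPM, the Rbm3 and Rbm3-ps records did not overlap between the groups and Cirbp did. The share of all genes without overlap was not computed. By edgeR, 389 of 16195 genes, 2.40%, were called in this comparison, with 82 higher (0.506%) and 307 lower (1.90%) in the samples labelled SP-HT.

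The Rbm3 pair was also set beside other records that divide an assembled gene. Among 127 pairs of records made only of transcripts of 1 shared assembled gene, each at a mean of at least 1 CPM, the difference between the members of a pair in the log2(FC) of SP: HT vs NT had a median size of 0.17. For Rbm3 minus Rbm3-ps it was 3.0, the largest of the 127, and the next in size was 2.27. The records were chosen with these values in view, so this place is a description.

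SP-HT vs LP-NT, the widest contrast between winter torpor and summer normothermia, shares its SP-HT hamsters with the torpor comparison and its LP-NT hamsters with the photoperiod comparison. Rbm3 was 2.54-fold higher in SP-HT (log2(FC) 1.35, SE 0.17) and the Rbm3-ps record 4.77-fold lower (log2(FC) -2.25, SE 0.23). The sum had a log2(FC) of 0.05 (SE 0.14). Cirbp had a log2(FC) of 0.11 (SE 0.08), or 0.37 with effective lengths as an offset. Here too the Rbm3 and Rbm3-ps records did not overlap in CPM and Cirbp did, and the share of all genes without overlap was not computed. By edgeR, 221 of 16157 genes, 1.37%, were called, with 57 higher (0.353%) and 164 lower (1.02%).

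**Figure D4:**
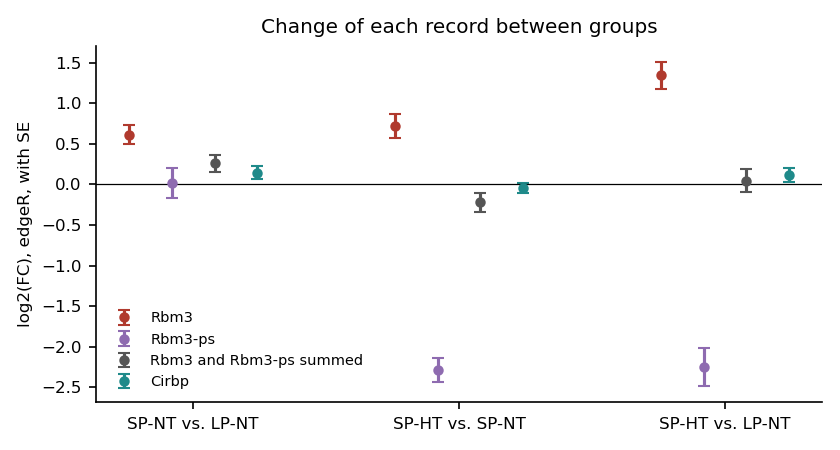
log2(FC) of the Rbm3 record, the Rbm3-ps record, their sum and the Cirbp record (y axis, edgeR) in SP-NT vs. LP-NT, SP-HT vs. SP-NT and SP-HT vs. LP-NT. Points are fitted values and whiskers their SE, with 4 hamsters per group; in torpor the Rbm3 record is at 0.72 and the Rbm3-ps record at -2.28, while their sum is at -0.22 and Cirbp at -0.04.

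Sex was examined because SP-HT held 3 males and 1 female. With group in the model, males minus females gave a log2(FC) of 0.14 (SE 0.13) for Rbm3, -0.05 (SE 0.07) for Cirbp and -0.29 (SE 0.15) for Rbm3-ps, with adjusted p of 0.866, 0.905 and 0.857 in edgeR. No gene was called between the sexes by edgeR over all 12 hamsters (739 of 16199 at an unadjusted p below 0.05), and 9 were called without SP-NT replicate 19, whose sex label is in doubt. With sex as a covariate the torpor log2(FC) was 0.68 for Rbm3, -2.24 for Rbm3-ps and -0.05 for Cirbp.

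The genes around Rbm3 and Cirbp were read from 4 lists with 37 names, of which 36 were tested. The names rest on mouse GeneIDs written down by hand. The lists were chosen with earlier results of these data known, so their counts of called genes and the p of their genes are descriptions. In torpor 4 of the 36 were called by edgeR, 1 higher and 3 lower in the samples labelled SP-HT, against 2.40% of all genes. DESeq2 and the fit with an effective length offset also called 4, where they called 1017 and 146 genes in all, against 389 in edgeR. None was called between the photoperiods by edgeR or DESeq2, with 3 at an unadjusted p below 0.05.

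Among the 15 regulators, which hold the CLK kinases, transcription factors, signalling proteins and modifiers of these proteins, 2 were lower and none higher in the samples labelled SP-HT. Over all genes, 1.90% were called lower and 0.506% higher by edgeR. Clk1 and Clk4 code for kinases of SR splicing factors. Clk1 was at 76.5, 63.7, 72.2 and 67.0 CPM in SP-NT replicates 19, 36, 37 and 38 and at 36.9, 24.6, 25.4 and 31.1 CPM in SP-HT replicates 02, 10, 26 and 33. The groups did not overlap, and the log2(FC) was -1.24 (SE 0.12, adjusted p = 0.00214 in edgeR). Its effective length was 2291 to 2443 bases in SP-NT and 1755 to 1882 bases in SP-HT, again without overlap.

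Clk4 was at 77.8, 69.0, 76.3 and 73.0 CPM in SP-NT and at 48.0, 37.2, 37.4 and 44.8 CPM in SP-HT, in the same order of replicates, without overlap. Its log2(FC) was -0.82 (SE 0.09, adjusted p = 0.00239 in edgeR). Clk2, with a log2(FC) of -0.38 (SE 0.12, adjusted p = 0.121 in edgeR), and Clk3, with -0.13 (SE 0.07, adjusted p = 0.355 in edgeR), did not reach the level of significance. Trpv4, a temperature-sensitive cation channel, had the largest positive value of this list, 0.16 (SE 0.27, adjusted p = 0.789 in edgeR). The median log2(FC) of the regulators was -0.075, beside -0.0027 over all genes.

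Known targets of the proteins were not called in torpor: of 6 genes, 0 were called by edgeR or DESeq2 and 0 had an unadjusted p below 0.05. Their log2(FC) ranged from -0.25 for Tlr4, the receptor bound by extracellular CIRBP, to 0.08 for Rtn3, a reticulon whose translation RBM3 raises. Clock, a circadian transcription factor whose mRNA CIRBP binds, had -0.10 (SE 0.10). Atr, with -0.10 (SE 0.10), is uncertain because its record joined 206 transcripts. The median of the list was -0.058.

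Of the 7 tested relatives, genes for other proteins with RNA recognition motifs, 1 was higher and 1 lower in the samples labelled SP-HT. The shares over all genes were 0.506% and 1.90%. Hnrnpa2b1, an hnRNP that packages and splices pre-mRNA, was at 37.5, 44.6, 48.3 and 38.7 CPM in SP-NT and at 73.6, 99.6, 82.6 and 76.8 CPM in SP-HT, with no overlap. Its log2(FC) was 0.97 (SE 0.11, adjusted p = 0.00293 in edgeR). Rbm5, a splicing regulator, was at 143.6, 137.0, 146.6 and 153.8 CPM in SP-NT and at 118.8, 95.4, 106.4 and 104.1 CPM in SP-HT, again without overlap. Its log2(FC) was -0.45 (SE 0.07, adjusted p = 0.00948 in edgeR). The lowest value of the list, -0.46 for Rbmxl1 (SE 0.37, adjusted p = 0.545 in edgeR), comes from a record at about 1 TPM. The median was -0.055.

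The cold-shock domain proteins are named for a different fold, that of bacterial cold-shock proteins, and none of their 8 genes was called in torpor by edgeR or DESeq2, with 0 at an unadjusted p below 0.05. The lowest value was -0.29 for Lin28b (SE 0.24), and the median was -0.082. Ybx1, a widely expressed Y-box protein, had -0.05 (SE 0.05).

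**Figure D5:**
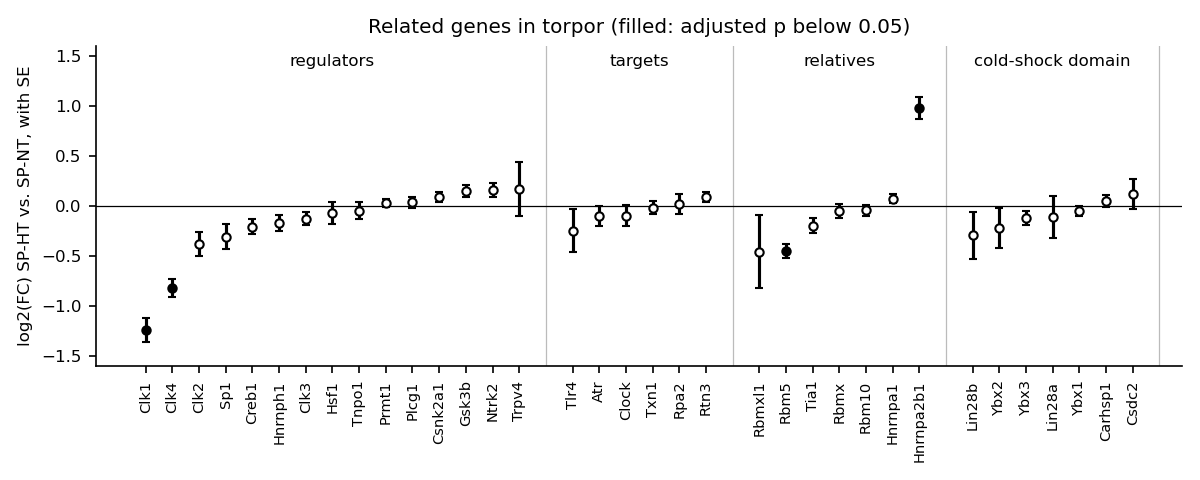
log2(FC) in SP-HT vs. SP-NT with SE (y axis, edgeR, n = 4 per group) of genes around Rbm3 and Cirbp, in 4 lists (x axis). Filled points passed an adjusted p of 0.05: Clk1 at -1.24, Clk4 at -0.82 and Rbm5 at -0.45 below 0, and Hnrnpa2b1 at 0.97 above.

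In SP-HT vs LP-NT the same 4 genes were called, with log2(FC) of -1.30 for Clk1, -0.80 for Clk4, -0.41 for Rbm5 and 1.23 for Hnrnpa2b1 (adjusted p of 0.00792, 0.00847, 0.0274 and 0.0102 in edgeR), 4 of 36 against 1.37% of all genes. DESeq2 called 5, with Rbmxl1 in addition (log2(FC) -0.83, adjusted p = 0.0393), and the fit with an effective length offset called 3. Over all genes these 2 fits called 706 and 102, against 221 in edgeR. The comparison shares its SP-HT hamsters with SP: HT vs NT, and the lists were chosen with earlier results known, so this count is a description too. Rbm5 was called in 2 of the 8 fits that left out a hamster and lost its call without LP-NT replicate 02, 03 or 05 or SP-HT replicate 10, 26 or 33, with adjusted p up to 0.0897 in edgeR. Clk1 had an adjusted p of 0.0688 with effective lengths as an offset. In SP: HT vs NT all 4 kept their call in each of the 8 fits.

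The genes whose log2 CPM followed a record most closely over the 12 hamsters were ranked by Pearson's r among 13940 genes with a mean of at least 1 CPM. These r are descriptions over 12 points that fall into the 3 groups. For Rbm3 the closest were GeneIDs 79362 (r = 0.965, Spearman's rho = 0.965) and 73991 (r = 0.95, rho = 0.958). With group means removed r was 0.775 and 0.732. GeneID 17388 (r = -0.931) and Rax, a tanycyte transcription factor (r = -0.930), ran most strongly against it, with Rax at 2.45, 1.17 and 0.516 CPM on average in LP-NT, SP-NT and SP-HT.

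For the Rbm3-ps record the closest were GeneIDs 67769 (r = 0.965) and 213499 (r = 0.962), and the most opposed 20893 (r = -0.962) and 217039 (r = -0.936). Within groups these were 0.555, 0.443, -0.782 and -0.657. Among the related genes, Rbm5 (r = 0.922), Clk4 (r = 0.918) and Clk1 (r = 0.894) ran close to it, at places 29, 35 and 77 of the ranking, but with group means removed r was 0.22, -0.022 and -0.19. For Cirbp the closest were GeneIDs 74735 (r = 0.873) and 19053 (r = 0.867) and the most opposed 66455 (r = -0.917) and 66494 (r = -0.906), with 0.867, 0.824, -0.903 and -0.874 within groups. Rbm3 and Cirbp themselves had r = 0.346, and 0.034 within groups.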

How the data were processed

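Reads were processed by the authors, who checked them with FastQC 0.11.9, trimmed them with Trim Galore 0.6.6, pooled all libraries into a Trinity assembly, assigned transcripts to mouse GeneIDs (GRCm39) by best blastx hit, mapped with Bowtie 1.3.0 and quantified with RSEM 1.3.1. The deposited values per GeneID are expected counts, TPM and effective lengths, also FPKM, which was not used. No sequence file was used here. Expected counts were rounded, and edgeR 4.0.16 tested genes with a sum of at least 10 over the hamsters compared (R 4.3.3, quasi-likelihood test, TMM, Benjamini-Hochberg adjustment over all genes, threshold 0.05). CPM and log2 CPM (prior count 2) used TMM over 12 samples, the group names come from the labels, and SE is the log2(FC) divided by the root of F.

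The alternatives were DESeq2 1.42.0, median-of-ratios factors, no filter, filterByExpr, 1 fit of 12 samples, an effective length offset, a sex covariate, log2(TPM + 0.1), summed records and leaving out each hamster. DESeq2 with effective lengths and the pairs of records were chosen after seeing the data. Members and gene lists were chosen with earlier results of these data known. The files pair no names with GeneIDs. For 6 of 6 hand-named genes also in the study's tables, log2(FC) matched in size, with the same sign for photoperiod and the opposite sign for torpor. Named were the 3 records, related genes called in any comparison, the extremes of each list in torpor, and the genes closest and most opposed to each record by r, at most 2 IDs each way. Other genes in a list were named as examples after their values were seen. On simulated counts for 16195 genes in the torpor design, 71.7% of 1.5-fold and 93.7% of 2-fold changes were recovered, with 9 false calls. In the photoperiod design these were 66.7% and 84.2%, with 8 false calls. Changes were planted only in genes with a mean above 1 CPM, and counts were drawn with the fitted dispersions. The photoperiod design held 81 planted changes of 1.5-fold, 57 of 2-fold and 62 of 4-fold. In the real photoperiod data edgeR called 6 genes. With more changed genes the Benjamini-Hochberg adjustment lets weaker p pass. Recovery in the real data can therefore be lower. The values of 1 listed gene are not reported here. Each library is 1 hamster.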

Additional observations from a re-analysis of the deposited data

Results flagged for a closer look

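In 24 groups of 4 hamsters, the samples were searched for a value far from the other 3, and 2 were found, where chance flags about 1 in 20 groups. The effective length of the Rbm3 record was 1330.0 bases in SP-HT replicate 33, with the other SP-HT hamsters between 1301 and 1303 bases. The summed CPM of Rbm3 and Rbm3-ps was 18.7 in LP-NT replicate 01, with the other LP-NT hamsters between 24.1 and 25.1 CPM.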

How the results depend on the processing

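Between 52 and 552 expected counts per library lie behind the Rbm3 and Rbm3-ps values, which limits them most for Rbm3-ps in SP-HT. The number of genes called depended on the tool and on single hamsters. DESeq2 called 33, 1017 and 706 genes for photoperiod, torpor and SP-HT vs LP-NT, and DESeq2 with effective lengths 32, 759 and 623, against 6, 389 and 221 in edgeR. An effective length offset gave 146 and 102 for the latter pair, sex as a covariate 242 for torpor, and 12 samples in a single fit 612 for SP-HT vs LP-NT. Leaving out a hamster gave 5 to 8, 104 to 318 and 55 to 200 genes, the lowest for torpor without SP-NT replicate 38 and for SP-HT vs LP-NT without SP-HT replicate 26, with fewer hamsters in each fit. Each hamster but SP-HT replicate 33 moved the torpor count by over 1.5 times (104 to 258 genes), and each but LP-NT replicate 01 that of SP-HT vs LP-NT (55 to 87 genes). Rbm3 passed the threshold for photoperiod with DESeq2 (log2(FC) 0.62, adjusted p = 0.00389) and DESeq2 with effective lengths (0.61, adjusted p = 0.0103), and in no fit without a hamster (0.55 to 0.71, adjusted p from 0.0819 to 0.932 in edgeR). The photoperiod log2(FC) of Rbm3-ps turned to -0.15 without LP-NT replicate 01, -0.0081 when SP-NT replicate 19 was left out and -0.021 without SP-NT replicate 37, within -0.15 to 0.11 over all 8 fits. In torpor, Rbm3 turned to -0.22 with the records summed, and Cirbp to 0.20 with the offset, 0.20 in DESeq2 with effective lengths and 0.15 in log2(TPM + 0.1), where Rbm3-ps was at -2.52. In SP-HT vs LP-NT, Rbm3 was at 0.048 with the records summed and Cirbp at 0.37, 0.37 and 0.35. Without a hamster, the torpor log2(FC) ran from 0.58 to 0.83 for Rbm3, -2.44 to -2.19 for Rbm3-ps and -0.08 to 0.02 for Cirbp, and in SP-HT vs LP-NT from 1.20 to 1.46, -2.43 to -2.16 and 0.04 to 0.16. The photoperiod log2(FC) of Cirbp ran from 0.08 to 0.19. The difference in effective length turned for Rbm3 (-2.08 bases without LP-NT replicate 05, range -2.08 to 4.16) and for Cirbp (2.93 without LP-NT replicate 03 and 26.6 without SP-NT replicate 38, range -46.8 to 26.6), and stayed at 14.7 to 28.4 bases for Rbm3-ps. The share of Rbm3-ps ran from -14.0 to -6.54 points. The cause of these changes was not tested. No paired analysis was possible because each library comes from a different hamster. The replicate number 02 occurs in LP-NT and in SP-HT but names different animals.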
